A study of Homo sapiens with 6 samples.

Results

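Chemokines and chemokine receptors were followed in the transcriptome of U87-MG cells, an established human glioblastoma cell line, with or without CHRM3 knockdown. The 9 genes were taken by name from a table of 61731 genes and loci. They are the CC chemokines CCL2, CCL5, CCL7, CCL20 and CCL26, the membrane-anchored chemokines CX3CL1 and CXCL16, and the receptors CXCR4 and ACKR3. The comparison used 3 libraries of cells labelled Normal control and 3 of cells labelled CHRM Knockdown. The study made its knockdown cells by lentiviral infection with sequences against CHRM3, which encodes the M3 muscarinic acetylcholine receptor, and it does not say which sequence the sequenced cells carried. All 6 libraries come from the same cell line, with no added chemokine or cytokine named for these cells. Nothing says that the libraries of a group were separate cultures, so the p-values measure the spread between these libraries, which may be technical.

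Chemokines are small secreted proteins that bind G protein-coupled receptors and guide cell migration along their gradients. CC chemokines carry adjacent cysteines near the start of the mature protein, CXC chemokines separate them by a single residue, and the CX3C chemokine CX3CL1 has a wider gap. CX3CL1 and CXCL16 are made on a mucin-like stalk with a membrane anchor and are released by ADAM proteases. CXCL12 has CXCR4 as its signalling receptor, while ACKR3, also known as CXCR7, binds CXCL12 and CXCL11 and acts mainly as a scavenger that recruits arrestin. In glioma, CCL2 is known for the recruitment of myeloid cells, and the CXCL12 receptors for tumor cell invasion.

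The coding stretches that give these families their names are shown because the genes are ordered by them here. They were read from the GENCODE 29 transcripts (GRCh38), from 9 bases before the first of the paired cysteine codons to 9 bases after the second. Capitals mark these codons, and each stretch lies within exon 2 of its transcript.
CCL2: ccagtcaccTGCTGTtataacttc
CCL7: tcaactaccTGCTGCtacagattt
CCL5: accacacccTGCTGCtttgcctac
CCL20: aactttgacTGCTGTcttggatac
CCL26: tccaagaccTGCTGCttccaatac
CXCL16: actggaagtTGTtatTGTggtaaaaga
CX3CL1: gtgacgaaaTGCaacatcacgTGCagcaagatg

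The codons were adjacent in the 5 CC chemokines, 1 codon apart in CXCL16 and 3 codons apart in CX3CL1. The CCL26 stretch lies at chr7:75771966-75771989 on the minus strand, and that of CCL2 at chr17:34256236-34256259 on the plus strand. For the receptors, the 21 bases that open with the aspartate-arginine-tyrosine codons after the third transmembrane segment are given, with capitals at the 4 bases that differ.
CXCR4: gaccgctacctGGccatcGTc
ACKR3: gaccgctacctCTccatcACc

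This stretch of a chemokine receptor is known for contact with G proteins, and ACKR3 is known to lack conventional G protein signalling. The ACKR3 stretch lies at chr2:236580886-236580906 on the plus strand in exon 2 of 2, and the CXCR4 stretch at chr2:136115511-136115531 on the minus strand in a transcript of 1 exon. Over the aligned coding sequences without stop codons, CXCR4 and ACKR3 shared 55.5% of bases, and CCL2 and CCL7 shared 79.1%.

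The values are TPM, a share of each library that takes transcript length into account, so levels can be compared between genes. TPM keeps no read depth, and the depth of the 6 libraries is unknown. Between 13518 and 13664 genes reached 1 TPM in a library. CHRM3 itself was 0.02, 0.09 and 0.13 TPM in control replicates 1 to 3 and 0.13, 0.01 and 0.02 TPM in knockdown replicates 1 to 3 (exact two-sided permutation p = 0.80, smallest possible 0.10). At these levels the TPM alone could not show a reduction, so the groups below rest on the labels. The paper itself reports an efficient knockdown of CHRM3 in U87 cells, from measurements other than these libraries. It does not state whether the cells measured there were the ones sequenced. CDKN2A and CDKN2B, which are deleted in U87, were listed at 0 TPM in all 6 libraries, and MTAP reached at most 0.01 TPM. VIM and CD44, marks of the mesenchymal state of this line, were abundant, whereas the glial and stem genes GFAP, OLIG2, S100B and SOX2 stayed at or under 1.46 TPM in every library. Of the marker genes that passed with a log2 difference of 0.5 or more in size, FN1 fell by 0.57 on the log2 scale, and NES, TUBB3 and CSF1R rose by 0.50, 0.64 and 0.66, while 5 endothelial genes stayed under 1 TPM in every library.

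Of the 9 genes, CCL26, CCL2 and ACKR3 reached a mean of 1 TPM over the 6 libraries, the limit for the limma test. CCL26 fell by 1.69 on the log2 scale, CCL2 rose by 0.70 and ACKR3 rose by 1.65 in the knockdown. All 3 passed at a limma adjusted p under 0.05. Over the 13722 genes tested, 24.0% were lower and 12.1% were higher by the same rule, and 36.1% passed in either direction. This excess of lower genes depended on scaling, with 16.4% lower and 16.8% higher under median-of-ratios scaling and 16.2% and 16.3% under quantile normalization, whereas CCL26, CCL2 and ACKR3 passed in the same direction under both. When the log2 difference also had to be 1 or more in size, 1.87% of all tested genes passed, 1.2% lower and 0.67% higher, and CCL26 and ACKR3 were among them. For each of the 3 genes the control and knockdown values were separate, as they were for 50.2% of all tested genes. The other 6 genes stayed under 1 TPM in every library, and their values are given below.

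**Figure D1:**
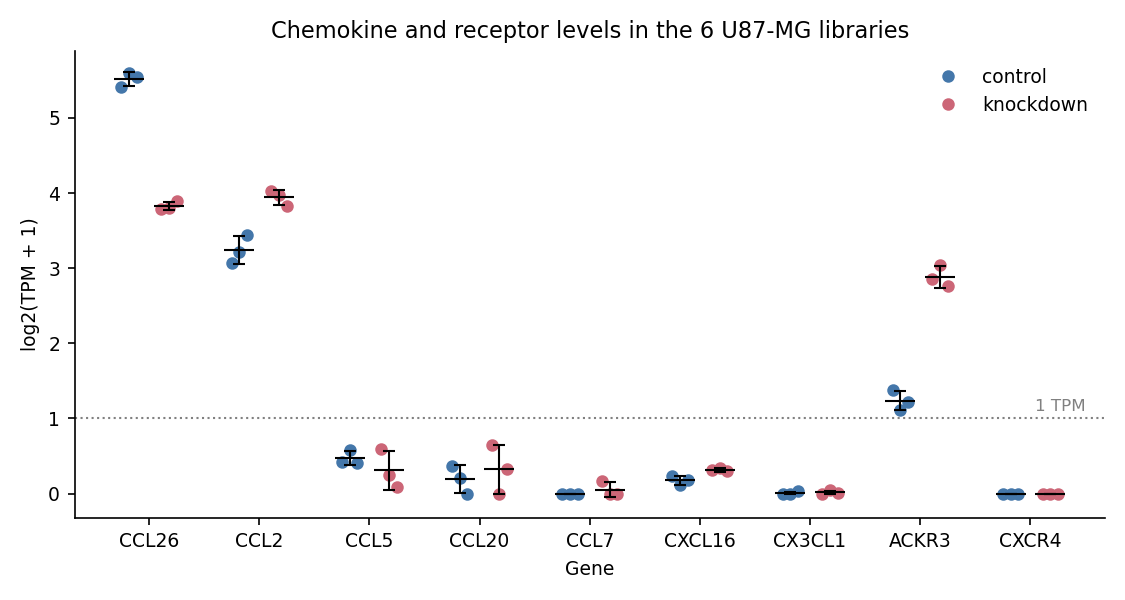
Level of the 9 genes as log2(TPM + 1) in each library. Points are libraries, black bars are the mean and SD of 3 libraries, and the dotted line marks 1 TPM. CCL26 is lower, and CCL2 and ACKR3 are higher, in all 3 knockdown libraries, while the remaining genes lie under the line.

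CCL26 (ENSG00000006606), also called eotaxin-3, attracts eosinophils through CCR3 and is induced by interleukin-4 and interleukin-13. Its gene occupies chromosome 7 from 75769533 to 75789896 (minus strand). Its level was 41.71, 47.31 and 45.76 TPM in control libraries 1, 2 and 3, and 12.82, 12.99 and 13.83 TPM in knockdown libraries 1, 2 and 3. Every knockdown library was far below every control, and the knockdown libraries lay close together. The mean was 44.9 ± 2.89 TPM in control cells and 13.2 ± 0.541 TPM after knockdown (SD, n = 3 each), a 3.4-fold lower level. On log2(TPM + 1) the difference was -1.69 (95% interval -1.83 to -1.55, limma adjusted p = 8.53e-06). In the controls 78.1% of tested genes were less abundant than CCL26, and in the knockdown 52.3% were. Of the 13722 tested genes, 83 had a larger drop.

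CCL2 (ENSG00000108691), the monocyte chemoattractant MCP-1 that signals through CCR2, is encoded on chromosome 17 from 34255218 to 34257203 (plus strand). It was 7.43, 8.26 and 9.84 TPM in control cells and 15.25, 14.74 and 13.17 TPM in the knockdown. The highest control stayed below the lowest knockdown library, but the gap was narrower than for CCL26. The mean rose from 8.51 ± 1.22 to 14.4 ± 1.08 TPM (SD, n = 3 each), which is 1.69-fold. The log2 difference was 0.70 (95% interval 0.45 to 0.95, limma adjusted p = 0.00298), and 351 tested genes had a larger rise. The coefficient of variation of CCL2 between controls was 14.4%, against a median of 7.09% for 4457 tested genes of similar level.

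The remaining CC chemokines of the group were rare. CCL5, a ligand of CCR1 and CCR3 that attracts T cells and monocytes, was 0.34, 0.49 and 0.33 TPM in control cells and 0.51, 0.19 and 0.06 TPM in the knockdown. The groups overlapped, and 1 knockdown library held the highest value and another the lowest. CCL20, which attracts CCR6-bearing lymphocytes and dendritic cells, was 0.29, 0.16 and 0 TPM in control cells and 0.57, 0 and 0.25 TPM in the knockdown. Each group thus held a library at 0. CCL7, a neighbour of CCL2 that also binds CCR2, was listed at 0 TPM in 5 libraries and at 0.12 TPM in knockdown replicate 1. Its gene lies 13017 bases beyond the end of CCL2 on the same strand. By exact two-sided permutation tests, p was 0.50 for CCL5, 0.70 for CCL20 and 1.0 for CCL7, where 0.10 is the smallest that 3 against 3 allow.

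The membrane-anchored chemokines were also rare. CXCL16, the ligand of CXCR6 and a scavenger receptor for oxidized lipoprotein, was 0.18, 0.08 and 0.13 TPM in control cells and 0.24, 0.27 and 0.23 TPM in the knockdown. The groups did not overlap, with means of 0.13 ± 0.05 and 0.247 ± 0.0208 TPM (SD, n = 3 each). In a limma fit with no limit on low values, which tested 30412 genes, the log2 difference was 0.14 (95% interval 0.03 to 0.26) and the adjusted p was 0.126. In that fit 13.3% of genes passed in either direction, and 27.4% had groups that did not overlap. CX3CL1, which binds CX3CR1 on microglia and other leukocytes, was 0, 0 and 0.02 TPM in control cells and 0, 0.03 and 0.01 TPM in the knockdown. These values are within a few rounding steps of 0.01 TPM, and the groups overlapped.

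ACKR3 (ENSG00000144476) is encoded on chromosome 2 from 236567787 to 236582358 (plus strand). It was 1.59, 1.17 and 1.33 TPM in control cells and 6.26, 7.26 and 5.77 TPM in the knockdown. The lowest knockdown library was well above the highest control. The mean rose from 1.36 ± 0.212 to 6.43 ± 0.759 TPM (SD, n = 3 each), a 4.72-fold higher level. The log2 difference was 1.65 (95% interval 1.37 to 1.93, limma adjusted p = 0.000145), and 43 tested genes had a larger rise. Because 1 was added to each value before the logarithm, this difference understates the change of the TPM of a gene at the low level that ACKR3 had in the controls.

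CXCR4 (ENSG00000121966), on chromosome 2 from 136114349 to 136118165 (minus strand), was listed at 0 TPM in all 6 libraries. No fold change can be given for it. The receptors for CXCL12 therefore had unlike levels in these cells, with ACKR3 measurable in every library and CXCR4 in none. Their shared ligand CXCL12 was 0, 0 and 0.02 TPM in control cells and 0.39, 0.03 and 0.06 TPM in the knockdown. The knockdown values of CXCL12 were all above the controls, but 2 of these 3 values lay close to the rounding step (exact two-sided permutation p = 0.10, the smallest possible). CXCL11, the other ligand of ACKR3, was listed at 0 TPM in all 6 libraries.

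In the controls the order of levels was CCL26, CCL2, ACKR3, CCL5, CCL20, CXCL16 and CX3CL1, followed by CCL7 and CXCR4 at 0. Neighbours in this order did not overlap between libraries, except CCL20 with CXCL16 and the genes at or near 0. In the knockdown CCL2 had the highest mean, with values of 13.17 to 15.25 TPM that overlapped the 12.82 to 13.83 TPM of CCL26. ACKR3 followed without overlap, at 5.77 to 7.26 TPM. CCL20, CCL5 and CXCL16 overlapped each other there. The 6 genes under the limit together made 0.48 to 0.81 TPM in a control library and 0.49 to 1.44 TPM in a knockdown library.

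The ratio of CCL26 to CCL2 within a library is not changed by a single scale factor per library, as in median-of-ratios scaling. Quantile normalization can change it. It was 5.61, 5.73 and 4.65 in control libraries 1, 2 and 3, and 0.841, 0.881 and 1.05 in knockdown libraries 1, 2 and 3. CCL26 thus exceeded CCL2 in each control, and in the knockdown the genes were close to equal. The mean ratio was 5.33 ± 0.592 in the controls and 0.924 ± 0.111 in the knockdown (SD, n = 3 each). The exact two-sided permutation p was 0.10, the smallest possible, and it stayed 0.10 after Benjamini-Hochberg adjustment over 5 measures of this kind.

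All 26 CC chemokine genes on a list of the family were then examined. Of these, 16 were listed at 0 TPM in all 6 libraries and 23 stayed under 1 TPM in every library. The same counts over all 61731 genes and loci were 31319 and 46620. The 3 CC chemokine genes that were tested all passed, with CCL26 lower and CCL2 and CCL3 higher. Their median log2 fold change was 0.70 against -0.06 over all tested genes, of which 36.1% passed in either direction. CCL3 (MIP-1α), a ligand of CCR1, was 1.69, 2.52 and 1.44 TPM in control cells and 4.68, 4.10 and 3.46 TPM in the knockdown (log2 difference 0.83, limma adjusted p = 0.0102). The knockdown libraries were all above the controls, where 50.2% of all tested genes had groups that did not overlap. CCL3L3, a near copy on the same chromosome annotated as CCL3L1 in GENCODE 29, shares 96.7% of aligned coding bases with CCL3, so reads may be split between them. CCL3L3 was 0.32, 0.43 and 0 TPM in control cells and 0 TPM in the knockdown. The sum of both genes was 1.44 to 2.95 TPM in control cells and 3.46 to 4.68 TPM in the knockdown, which still did not overlap.

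Summed over the 26 genes, CC chemokine transcripts made 52.7, 59.7 and 57.9 TPM in control libraries 1, 2 and 3, and 34.4, 32.0 and 31.1 TPM in knockdown libraries 1, 2 and 3. The knockdown sums were all below the control sums. CCL26 made 79.1 ± 0.115% of the sum in the controls and 40.8 ± 3.65% in the knockdown (SD, n = 3 each). The share of CCL2 was 15.0 ± 1.77% and 44.2 ± 1.85%, and that of CCL3 was 3.31 ± 0.869% and 12.5 ± 1.28% (SD, n = 3 for each mean). The exact two-sided permutation p was 0.10 for each of these 4 measures, again the smallest possible and unchanged by adjustment. These shares are not independent of each other, since a drop of CCL26 alone raises the others.

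**Figure D2:**
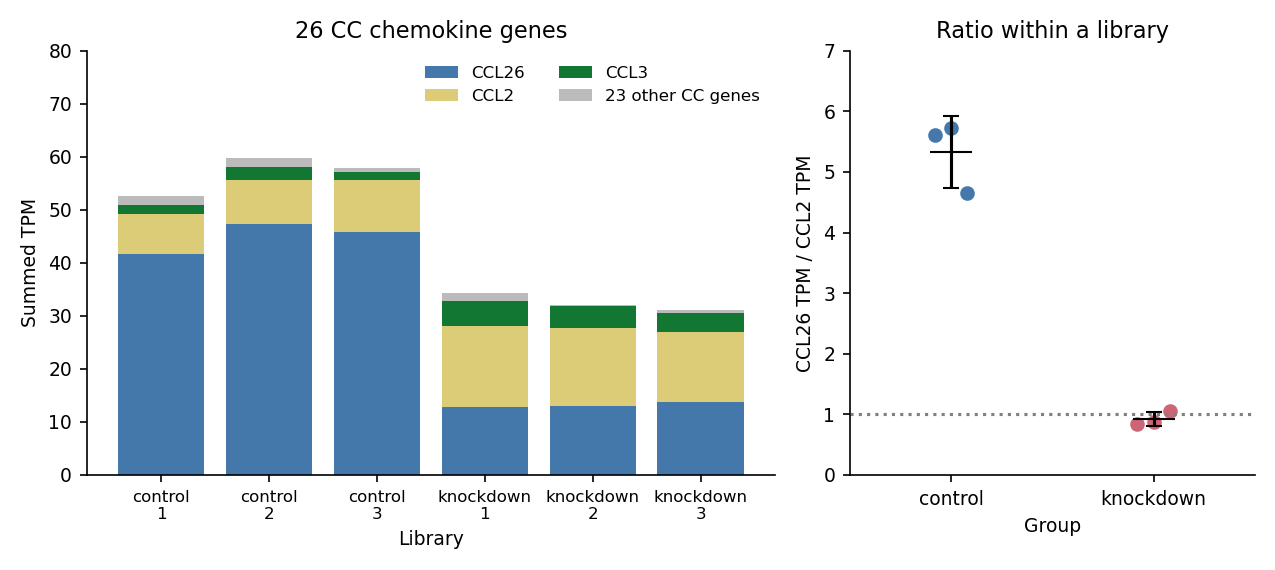
Left, summed TPM of the 26 CC chemokine genes in each library, with colors for CCL26, CCL2, CCL3 and the 23 others. Right, CCL26 TPM divided by CCL2 TPM in each library, with the mean and SD of 3 libraries, and a dotted line where both are equal. The ratio is 4.65 to 5.73 in the controls and 0.841 to 1.05 in the knockdown.

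The gene next to CCL26 on chromosome 7 is CCL24, encoding eotaxin-2, another CCR3 ligand, 21.8 kb away from 75811665 to 75823356. It was singled out after its values were seen. CCL24 was 0.80, 0.54 and 0.53 TPM in control cells and 0.15, 0 and 0.33 TPM in the knockdown. All of its knockdown libraries were below all controls, as for CCL26, with a log2 difference of -0.49. With no limit on low values, 27.4% of genes had groups that did not overlap. Its mean was below the limit of 1 TPM, and it passed with a limit of 0.1 TPM (limma adjusted p = 0.0468), where 23.1% of 20229 genes passed, but not with no limit (0.0632). The coding sequences of CCL26 and CCL24 shared 53.8% of aligned bases.

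Most chemokine receptor genes were low in these libraries, as were most of all genes and loci. ACKR3, CCR1, CCR10 and CCRL2 were above 1 TPM in all 6 libraries. Among 23 chemokine receptor genes, 9 were listed at 0 TPM in all 6 libraries and 19 stayed under 1 TPM in every library. The same counts over all 61731 genes and loci were 31319 and 46620. CCR2 and CCR6, the receptors of CCL2 and CCL20, were listed at 0 TPM throughout. CX3CR1 was at most 0.02 TPM, CXCR6 at most 0.18 TPM and CCR3, the receptor of CCL26, at most 0.25 TPM. The CCR3 gene spans CCR1, which is on the other strand, in the annotation. The assignment of its few reads may therefore be uncertain, which was not tested.

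Of the 4 receptor genes tested, ACKR3 rose and CCRL2 fell, while CCR1 and CCR10 did not pass, against 36.1% passing over all tested genes. CCRL2, an atypical receptor that binds chemerin, was 2.88, 2.24 and 2.97 TPM in control cells and 1.57, 1.78 and 1.28 TPM in the knockdown (log2 difference -0.54, limma adjusted p = 0.0221). Its knockdown libraries were all lower, but the call was lost with the replicate number as a block (limma adjusted p = 0.0687), with no limit on low values (0.0717) and when control replicate 1, control replicate 3, knockdown replicate 1 or knockdown replicate 3 was left out (0.0526 to 0.074). CCR1, a receptor for CCL3, CCL5 and CCL7, was 3.39, 3.30 and 3.24 TPM in control cells and 3.75, 3.86 and 3.62 TPM in the knockdown. These groups did not overlap, yet the difference of 0.14 (95% interval -0.04 to 0.31) had a limma adjusted p of 0.191. CCR10, a receptor for CCL27 and CCL28, was between 1.60 and 2.53 TPM in all libraries.

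Leukocyte genes were examined because chemokine receptors and CCL3 are typical of these cells. Of 11 leukocyte genes, 9 stayed under 1 TPM in every library, and TYROBP and CD3E were listed at 0 TPM in all 6. Of all 61731 genes and loci, 46620 stayed under 1 TPM and 31319 were at 0 TPM in every library. The pan-leukocyte gene PTPRC was at most 0.12 TPM. The sum of the 11 genes was 9.28 to 10.2 TPM in control cells and 12.4 to 14.4 TPM in the knockdown, mostly CSF1R, which rose from 5.44 to 9.17 TPM (limma adjusted p = 0.000259), and CORO1A. LAPTM5 went the other way, with 0.83 to 0.91 TPM in control cells and 0.38 to 0.52 TPM in the knockdown. The part of such cells in the rises of CCL2, CCL3 and ACKR3 was not tested beyond these values. In RNA from a whole culture, fewer cells that express a gene and less RNA per cell cannot be told apart.

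The further members of the CXCL12 system gave 4 rises among 5 genes tested of 9 listed, with ACKR3 counted among them, against 12.1% of all tested genes that rose. The counts for this list were the same under both other scalings. CD74, the receptor chain for MIF that also serves as the MHC class II invariant chain, was 24.7, 23.39 and 25.74 TPM in control cells and 101.72, 112.13 and 106.38 TPM in the knockdown (log2 difference 2.07, limma adjusted p = 2.65e-06). MIF, a cytokine that also binds CXCR4 and ACKR3, was far more abundant, with 1913.7 to 1990.47 TPM in control cells and 2551.51 to 2615.24 TPM in the knockdown (log2 difference 0.41, limma adjusted p = 2.91e-05). DPP4, the peptidase that trims and inactivates CXCL12, rose by 0.32 on the log2 scale (limma adjusted p = 0.00592). Each of these 3 genes had separate groups, as did 50.2% of all tested genes. CXCL14, a further chemokine of the list, was 0.40, 0.36 and 0.38 TPM in control cells and 1.33, 0.86 and 0.93 TPM in the knockdown. It was below the limit on average, and only knockdown replicate 1 reached 1 TPM. CXCL14 passed in the fit with no limit on low values (log2 difference 0.56, limma adjusted p = 0.03), where 13.3% of 30412 genes passed in either direction. HMGB1, which forms a complex with CXCL12, was 562.6 TPM on average in control cells and 559.0 TPM after knockdown and did not pass. Over the 5 tested genes the median was 0.41, against -0.06 over all genes in the fit.

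Release of the membrane-anchored chemokines depends on ADAM10 and ADAM17, and γ-secretase then clears the remaining stub. ADAM10 was 55.74, 55.62 and 57.47 TPM in control cells and 59.07, 62.84 and 53.61 TPM in the knockdown, and the groups overlapped (log2 difference 0.05, limma adjusted p = 0.527). ADAM17 was 13.67, 11.87 and 10.33 TPM in control cells and 9.57, 8.88 and 8.58 TPM in the knockdown (log2 difference -0.37, limma adjusted p = 0.0312). The knockdown values of ADAM17 were lower without overlap, but the call was lost with median-of-ratios or quantile scaling (limma adjusted p = 0.0635 and 0.0583), with no limit on low values (0.0794), and when control replicate 1 or 2, or knockdown replicate 2 or 3, was left out (0.0662 to 0.0898).

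Of the 7 processing genes tested, 4 fell and 1 rose, with a median log2 fold change of -0.20, against 24.0% lower and 12.1% higher over all tested genes. Under both other scalings 3 fell and 1 rose. The γ-secretase genes PSENEN and APH1A fell by 0.20 and 0.23 on the log2 scale, and by 0.13 and 0.16 with median-of-ratios scaling, where both still passed. The inhibitors of metalloproteases moved furthest and in opposite directions. TIMP1 was 1796.6, 1786.57 and 1812.01 TPM in control cells and 549.1, 546.14 and 550.38 TPM in the knockdown. TIMP3, the inhibitor of ADAM17, was 0.65, 0.91 and 0.94 TPM in control cells and 6.48, 6.35 and 5.79 TPM in the knockdown (log2 difference 1.98, limma adjusted p = 5.25e-05). Its control mean was 0.833 TPM, so TIMP3 reached the limit of 1 TPM only through the knockdown libraries.

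**Figure D3:**
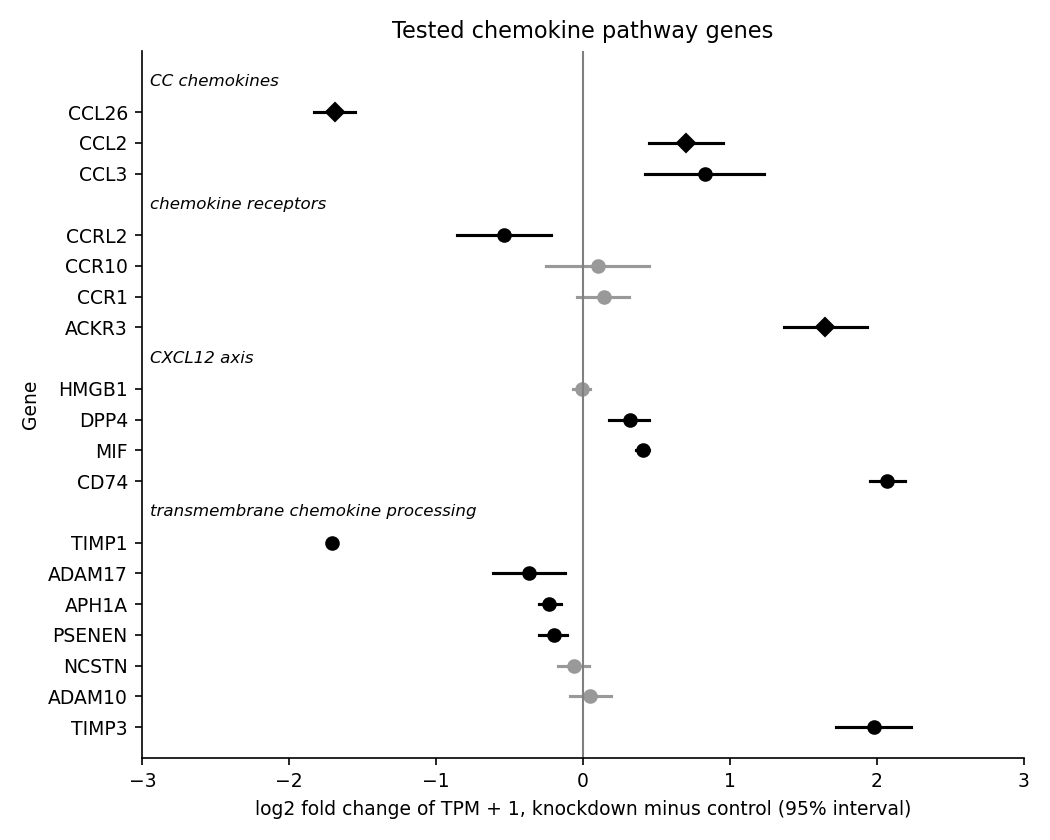
Log2 fold change of TPM + 1, knockdown minus control, with its 95% limma interval, for the tested genes of 4 lists. Black marks a limma adjusted p under 0.05 and grey the rest, and diamonds mark CCL26, CCL2 and ACKR3. TIMP1 and CCL26 are lowest, and CD74, TIMP3 and ACKR3 highest.

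Of 24 listed signalling genes downstream of chemokine receptors, 22 were tested, 5 fell, 1 rose and 16 did not pass, and the median log2 fold change was -0.02. The shares were 22.7% lower and 4.55% higher, against 24.0% and 12.1% over all tested genes. Under both other scalings 4 fell and 5 rose. The arrestin ARRB2, through which ACKR3 acts, was 31.97 to 33.11 TPM in control cells and 27.80 to 28.69 TPM in the knockdown. ELMO1, a partner of DOCK proteins in the activation of RAC, was 0.88, 0.46 and 0.21 TPM in control cells and 2.83, 2.28 and 1.98 TPM in the knockdown (log2 difference 1.16, limma adjusted p = 0.00551). Its control mean was 0.517 TPM, so ELMO1 reached the limit of 1 TPM only through the knockdown libraries. Its log2 difference ran from 1.01 to 2.14 over the alternative settings. PREX1, a RAC exchange factor activated by Gβγ, was 12.13, 12.34 and 12.60 TPM in control cells and 7.71, 6.26 and 6.93 TPM in the knockdown (log2 difference -0.75, limma adjusted p = 0.000615). For ELMO1 and PREX1 the groups did not overlap, as for 50.2% of all tested genes.

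Of 24 listed genes for transcription regulators and cytokine receptors, 22 were tested, 10 fell, 5 rose and 7 did not pass. Their median log2 fold change was -0.15. The shares were 45.5% lower and 22.7% higher, against 24.0% and 12.1% over all tested genes. Under both other scalings 7 fell and 5 rose. The largest was IL13RA2, the decoy receptor for interleukin-13, with 208.48, 220.24 and 210.88 TPM in control cells and 87.41, 88.94 and 88.48 TPM in the knockdown (log2 difference -1.26, limma adjusted p = 1.7e-06). The signalling chain IL13RA1 was 43.8 TPM on average in both groups (log2 difference 0.00, 95% interval -0.07 to 0.07, limma adjusted p = 0.994). IL4R was at most 1.12 TPM in any library and was not tested. STAT6, the factor through which interleukin-4 and interleukin-13 act, fell by 0.28 on the log2 scale, from 39.4 to 32.4 TPM (limma adjusted p = 0.00216). IFNGR1, a chain of the interferon-γ receptor, fell by 0.71, from 17.2 to 10.2 TPM (limma adjusted p = 0.00132). The 5 genes of the list that rose were FOS, STAT3, HIF1A, FOSL1 and IL1R1, by 0.41, 0.28, 0.25, 0.18 and 0.15 on the log2 scale.

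Over the 6 libraries, the tested genes nearest to CCL26 in their log2(TPM + 1) values relative to the control mean were TIMP1, IL1RN and PTGES, at root mean square distances of 0.0635, 0.0725 and 0.095. For CCL2 they were LINC02482, MAP2 and CREB5, at 0.0702, 0.0704 and 0.0778. For ACKR3 they were BNIP3, HLA-DRB5 and CA9, at 0.114, 0.115 and 0.132. BNIP3 went from 124.4 to 392.2 TPM and CA9 from 49.6 to 160.4 TPM. Both were far more abundant than ACKR3 at a like difference of log2(TPM + 1). With 0.1 added in place of 1, the log2 difference of ACKR3 was 2.16 in place of 1.65. Nearest genes were sought only with 1 added. HLA-DRB5 has near-identical copies, and its level is uncertain.

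The log2 fold changes of CCL26, CCL2 and ACKR3 were also computed under each alternative setting. CCL26 lay between -1.76 and -1.61 and CCL2 between 0.62 and 0.80 over 15 alternatives, and ACKR3 between 1.57 and 2.16 over the 14 in which it was tested. The highest limma adjusted p among these was 0.000517 for CCL26, 0.0187 for CCL2 and 0.00327 for ACKR3, so that no call was lost in these fits. The call of CCL2 was lost when the log2 difference also had to be 1 or more in size.

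**Figure D4:**
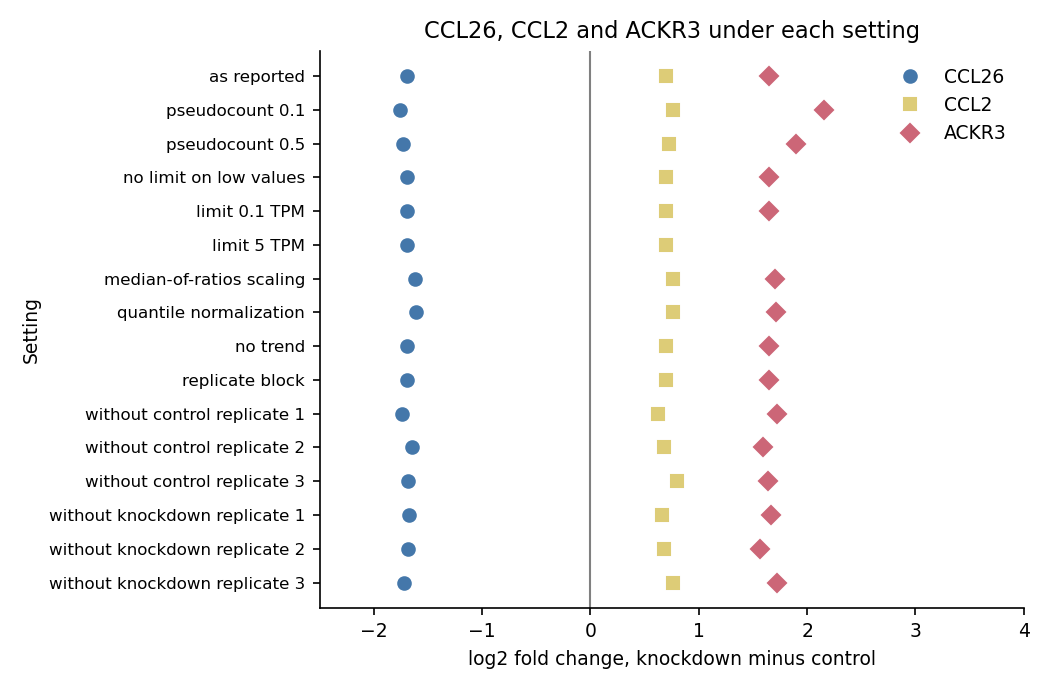
Log2 fold change, knockdown minus control, of CCL26, CCL2 and ACKR3 as reported and under each alternative setting. CCL26 stays between -1.76 and -1.61, CCL2 between 0.62 and 0.80 and ACKR3 between 1.57 and 2.16. ACKR3 was not tested with a limit of 5 TPM.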

How the data were processed

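The data were 6 paired-end libraries of U87-MG total RNA, 3 per group. As deposited by the authors, the values are TPM rounded to 2 decimals, in 1 table with a column per library, each summing to about 1000000. The submitters' processing notes name fastp, RSEM and GRCh38.p13, without roles or tool versions. The annotation and filters are not given in the sources used here. TPM keeps no depth, and counting errors or detection limits cannot be stated. The labels name a SMARTER library kit and the paper a TruSeq kit.

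Columns were matched to samples by title, and 0 columns were left without a sample. Symbols came from a table of gene names, and coordinates and coding sequences from GENCODE 29 (GRCh38). All 146 listed genes were found, and a few further genes of the lists are not reported here. Genes that averaged 1 TPM or more over the 6 libraries were tested on log2(TPM + 1) with limma 3.58.1 (R 4.3.3), with group as the only term and a mean-variance trend. P-values were adjusted over all 13722 tested genes by the Benjamini-Hochberg method, and an adjusted p under 0.05 was called. Other tests were exact two-sided permutation tests (scipy 1.17.1). On data simulated for this comparison over 13722 genes, 78 of 100 genes changed by 1 and 87 of 100 changed by 1.5 on the log2 scale were recovered, with 12 false calls. Only 200 genes were changed there, against 4955 called in the data, so these figures may not hold for the data.

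The 9 genes and the lists were chosen with earlier results of these data known. Listed genes were named where they passed with a log2 difference of 0.5 or more in size, up to 6 per list, with CXCL12, ADAM10 and ADAM17 named in any case. Other listed genes were added for their roles as ligands, receptors or regulators after their values were seen. For each of the 3 tested genes, the 3 genes of nearest pattern were also named. Alternatives were pseudocounts of 0.1 and 0.5, other limits on low values (0.1 TPM, 5 TPM or none), and changes to the scaling (quantile or median-of-ratios), the trend, a replicate block, the fold change limit, and each library left out in turn.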

Additional observations from a re-analysis of the deposited data

How the results depend on the processing

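The calls of CCL26, CCL2 and ACKR3 kept their direction and an adjusted p under 0.05 in every alternative fit in which each gene was tested. With the fold change limit of 1 on the log2 scale, CCL26 and ACKR3 passed and CCL2, at 0.70, did not. The receptor genes passing went from 2 of 4 to 1 of 14 with no limit on low values, where 13.3% of all genes in the fit passed. They went to 1 of 4 with the replicate block, and to between 1 and 2 of 4 when each library was left out in turn. CCRL2 was the gene that no longer passed. With a limit of 5 TPM no receptor gene was left to test. Over all tested genes, 4955 passed, and 256 (164 lower, 92 higher) did when the log2 difference also had to be 1 or more in size. CCR10, which was not called, went from 0.10 to between -0.02 (without knockdown replicate 2) and 0.20 (without knockdown replicate 1) on the log2 scale, and the cause was not tested. HMGB1 and IL13RA1, also not called, lay near 0 and changed sign. HMGB1 went from -0.01 to 0.06 with median-of-ratios scaling, 0.01 with quantile normalization and -0.03 to 0.00 with a library left out. IL13RA1 went from 0.00 to 0.07 with median-of-ratios scaling and 0.09 with quantile normalization. With a library left out, IL13RA1 lay between -0.01 and 0.02. CCR1 passed only with no trend (log2 difference 0.14, limma adjusted p = 0.0372). Same-numbered libraries of the groups were not paired by the labels, and their deviations from the group means correlated at -0.0198, 0.0341 and 0.0334 over the tested genes, so the numbers were not taken as pairs. With the replicate block 4007 genes passed in all. Both other scalings (quantile and median-of-ratios) moved the median of the tested genes from -0.06 to 0.00. The calls over all genes went from 3295 lower and 1660 higher to 2246 and 2306 with median-of-ratios scaling and to 2229 and 2233 with quantile normalization, and those of the 4 pathway lists together from 19 and 11 to 14 and 15 under both. With a limit of 0.1 TPM, 4 CC chemokine genes passed in place of 3, CCL24 being the further one. ADAM17 lost its call under 7 of 15 alternatives. The CCL26 to CCL2 ratio, an alternative chosen after seeing the data, changed by less than the SD between libraries when each library was left out. Levels near 0.01 TPM are limited by rounding, and the depth behind any value is unknown.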
